A study of Mus musculus with 6 samples.

Results

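The Satb1 window is a stretch of mouse chromosome 17, chr17:51750000-52450000 in the mm9 build, that was described as the gene Satb1 and its distal upstream region. Its members are all T-bet ChIP-seq peaks that overlap these 700 kb in any of 3 deposited peak lists. They number 8 of 8925 peaks in all: 0 of 78 in T-bet knockout (KO) cells, 5 of 7996 in wild-type (WT) replicate 1 and 3 of 851 in WT replicate 2. The window was chosen by the positions and scores of peaks in these same lists, so the number, position and score of the members are given as a description and no test is made of them.

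Chromatin immunoprecipitation followed by sequencing (ChIP-seq) recovers the DNA to which a protein is crosslinked, and a peak is an interval where the recovered fragments pile up. The series asked where T-bet binds in induced regulatory T (iTreg) cells. Both genotypes were precipitated with the same custom rabbit anti-T-bet serum: T-bet-KO iTreg cells, with 1 ChIP library, and WT iTreg cells, with 2. All 6 samples, which also include 1 KO and 2 WT input libraries not analysed here, are labelled Balb/c, and the cells came from spleens and lymph nodes of mice aged 4 to 10 weeks. Naive CD4+ cells were stimulated on plates coated with anti-CD3 and anti-CD28 at 10 µg/ml each, then held for 7 days with 33 ng/ml human TGF-β1 and 20 ng/ml IL-2. The KO library shows what the serum precipitates where T-bet is missing; the labels do not describe the KO allele. Peak lists cannot check the cell type or the knockout through marker genes. The labels do not say whether the WT libraries came from separate mice or cultures.

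T-bet, encoded by Tbx21, is a T-box transcription factor known for driving the T helper 1 fate and for its role in a subset of regulatory T cells. Satb1 encodes a nuclear protein that binds AT-rich DNA, anchors chromatin loops and is needed for thymocyte development. In the thymus it helps to open enhancers of regulatory T cell genes before Foxp3 is made; in mature regulatory T cells Foxp3 holds Satb1 down, and forced Satb1 expression weakens their suppressive function. These statements are background and not results of these data.

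The peaks could not be placed against the body of Satb1, because the gene annotation used here is of another build (GRCm38.p6) and positions were not converted. By gene order in that annotation, Satb1 is transcribed from the minus strand, so that its upstream side lies toward higher coordinates. On that side 4 long noncoding RNA genes (Gm20098, Gm19585, Gm41600 and Gm27217) and 1 pseudogene (Gm19197) separate it from the next protein-coding gene, Kcnh8, a voltage-gated potassium channel gene. On the other side the next protein-coding gene is Tbc1d5, which encodes a regulator of Rab GTPases in membrane traffic. Between it and Satb1 lie long noncoding RNA genes (Gm31143, C330011F03Rik, Gm31083 and Gm41598) and pseudogenes (Gm46574 and Gm25177). Which of these genes, if any, T-bet acts on cannot be read from peak positions.

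Peak sequences are not printed, since no mm9 genome was used here. The gene's own start regions can be shown from RefSeq, because they are the stretches where a peak at the promoter would lie; whether a peak covers them is not known. RefSeq lists 5 start regions for Satb1 on the minus strand of chromosome 17 in GRCm38.p6. The 250 bases before start 4 and those before start 5 partly overlap, so the regions are not 5 separate stretches. The 250 bases before each start were searched on both strands for the T-box core GGTGTG (reverse complement CACACC) and for the longer form AGGTGTGA (reverse complement TCACACCT), which contains the core. The core occurred before 2 of the 5 starts, once each, and the longer form before 0. Over all 32851 RefSeq start regions of this length, 16.3% held the core and 1.12% the longer form. The sequences before those 2 starts are given 5′ to 3′ along the gene, with the core match in capitals.
Satb1 start 1: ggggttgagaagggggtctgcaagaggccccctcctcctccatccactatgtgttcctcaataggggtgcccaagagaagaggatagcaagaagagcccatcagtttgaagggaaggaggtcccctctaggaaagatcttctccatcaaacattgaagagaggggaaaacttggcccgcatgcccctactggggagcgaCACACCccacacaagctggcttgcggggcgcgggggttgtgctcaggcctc
Satb1 start 3: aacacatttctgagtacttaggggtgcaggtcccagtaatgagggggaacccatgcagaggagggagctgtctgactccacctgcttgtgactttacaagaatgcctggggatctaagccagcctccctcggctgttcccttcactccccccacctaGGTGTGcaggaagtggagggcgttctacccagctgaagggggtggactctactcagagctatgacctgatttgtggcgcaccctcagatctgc
In the first sequence the match begins 51 bases before the start and reads on the strand opposite to the gene; in the second it begins 93 bases before the start and reads on the strand of the gene. A match is a run of letters, not a binding site.

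The KO list had no peak in the window, against 5 in WT replicate 1 and 3 in WT replicate 2. The 3 replicate 2 peaks each overlapped a replicate 1 peak, which left 2 peaks seen in replicate 1 alone. The 3 sites found in both WT libraries are called A, B and C here, in order of rising coordinates. They lay together in one part of the window and spanned 127 kb.

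**Figure D1:**
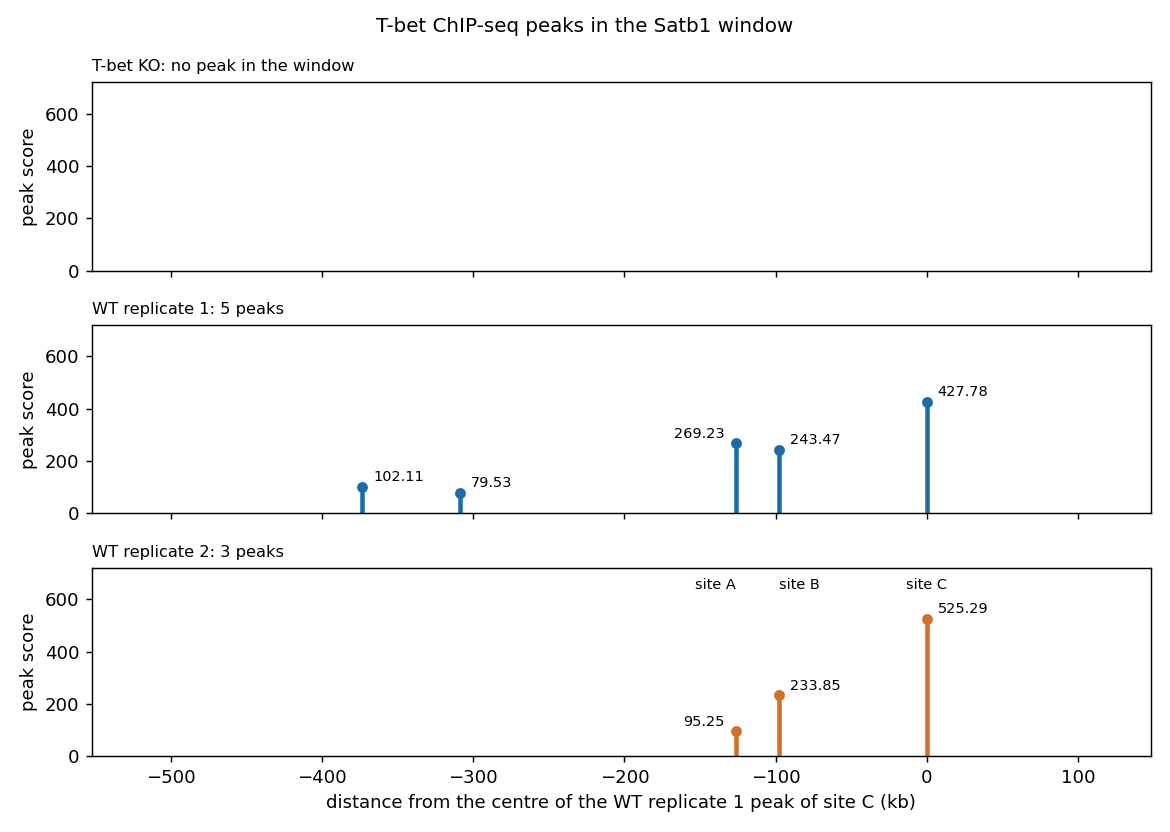
Position and score of every peak in the Satb1 window, one panel per list; the x axis is the distance in kb from the centre of the WT replicate 1 peak of site C, and the height is the peak score of that list. The T-bet KO panel is empty, WT replicate 1 has 5 peaks, and the 3 WT replicate 2 peaks stand at the positions of the 3 highest replicate 1 peaks.

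The score is the authors' value for each peak from the peak caller. Its scale is not stated, so scores are ranked within a list and their sizes are not compared between lists. Median scores over the whole lists were 104 in the KO list, 108 in replicate 1 and 108 in replicate 2, and the lowest scores were 70.4, 70.1 and 70.1 in the same order.

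Site C was the strongest member in both WT lists. In replicate 1 it was the peak chr17:52301891-52302276, 386 bp wide, with a score of 428, which ranked 252 of 7996 (the highest 3.15%). In replicate 2 it was the peak chr17:52301835-52302421, 587 bp wide, with a score of 525, which ranked 9 of 851 (the highest 1.06%) and 2 of 41 on chromosome 17.

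Site B lay 97.6 kb below site C by the replicate 1 peaks. Its replicate 1 peak was chr17:52203987-52204338, 352 bp wide, with a score of 243 and rank 940 of 7996 (11.8%). Its replicate 2 peak was chr17:52203963-52204377, 415 bp wide, with a score of 234 and rank 82 of 851 (9.64%). The lists differ in length, so these ranks place the peak within each list and do not compare the libraries; ranks over the sites common to both are given further on.

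Site A was the nearest neighbour of site B, 28.1 kb below it. The replicate 1 peak was chr17:52175327-52175865, with a score of 269 and rank 770 of 7996 (9.63%). At 539 bp it was the widest replicate 1 member, ranking 87 of 7996 by width. The replicate 2 peak was chr17:52175448-52175806, 359 bp wide, with a score of 95.25 and rank 513 of 851 (60.3%). Site A scored above site B in replicate 1 and below it in replicate 2.

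The remaining members were seen in replicate 1 alone and were weaker. The peak chr17:51928567-51928731 was 165 bp wide with a score of 102 and rank 4346 of 7996 (54.4%). The peak chr17:51993404-51993560 was 157 bp wide with a score of 79.5 and rank 6740 of 7996 (84.3%). Both were narrower than the list's median width of 175 bp and scored below its median. Over all members the median score was 243 in replicate 1, against 108 for that whole list, and 234 in replicate 2, against 108 for that whole list.

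**Figure D2:**
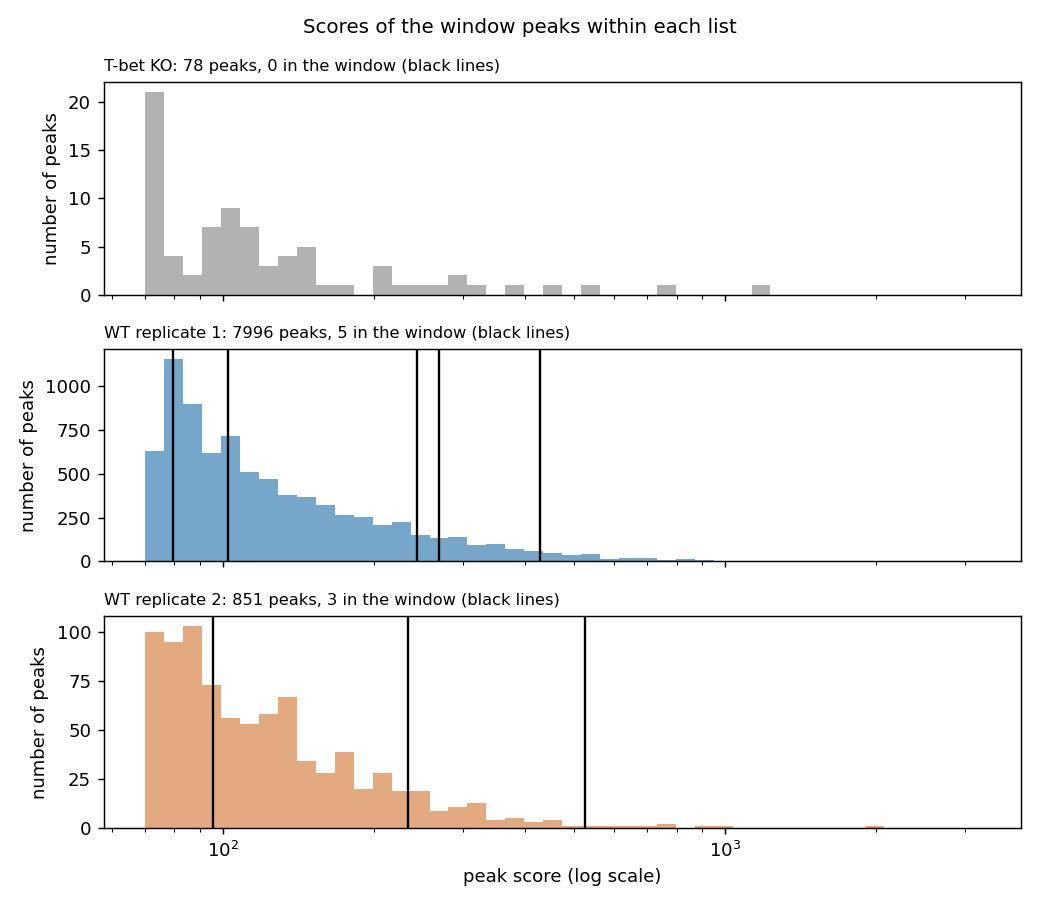
Number of peaks (y axis) by peak score (x axis, log scale) in each list, with the window members as black lines. The T-bet KO list has no member; 3 of 5 members lie in the upper tail in WT replicate 1, and in WT replicate 2 one lies among the common low scores and 2 lie in the tail.

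At least 1 bp in common counted as a shared peak. In the window, 3 of 5 replicate 1 peaks met a replicate 2 peak, beside 9.50% of the whole replicate 1 list. In the other direction 3 of 3 replicate 2 peaks met a replicate 1 peak, beside 85.4% of the whole replicate 2 list, so the second count is near what that list gives throughout. No member met a KO peak: 0 of 5 replicate 1 members, beside 0.550% of the list, and 0 of 3 replicate 2 members, beside 5.41% of the list. Both KO shares are near 0 in the lists as a whole, so an absence in the window says little.

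Over the whole list, the share of replicate 1 peaks that recurred varied with their score, and the members spanned its range. Sites A and C were in score decile 10, the highest, of replicate 1, where 47.1% of peaks (exact 95% binomial interval 43.6 to 50.6%, which covers counting error over peaks only) met a replicate 2 peak. Site B was in decile 9, where 16.6% did (14.1 to 19.4%). The members without a counterpart lay in decile 5, where 3.88% recurred (2.65 to 5.46%), and in decile 2, where 2.38% did (1.44 to 3.68%). Of the 254 replicate 1 peaks that scored at least as high as site C, 153, or 60.2%, had a replicate 2 counterpart.

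Among replicate 2 peaks the relation was flatter. Site A stood in decile 4 of that list, where 80.0% of peaks (69.9 to 87.9%) met a replicate 1 peak, and sites B and C stood in decile 10, where 96.5% did (90.0 to 99.3%). The low replicate 2 score of site A was therefore in a range where most peaks were also found in replicate 1. Of the 9 replicate 2 peaks that scored at least as high as site C, itself included, 7, or 77.8%, had a replicate 1 counterpart. Among the 726 replicate 1 peaks that met a replicate 2 peak and no KO peak, site C ranked 3 by replicate 2 score. Some of the higher replicate 2 peaks therefore had a replicate 1 counterpart that met a KO peak.

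**Figure D3:**
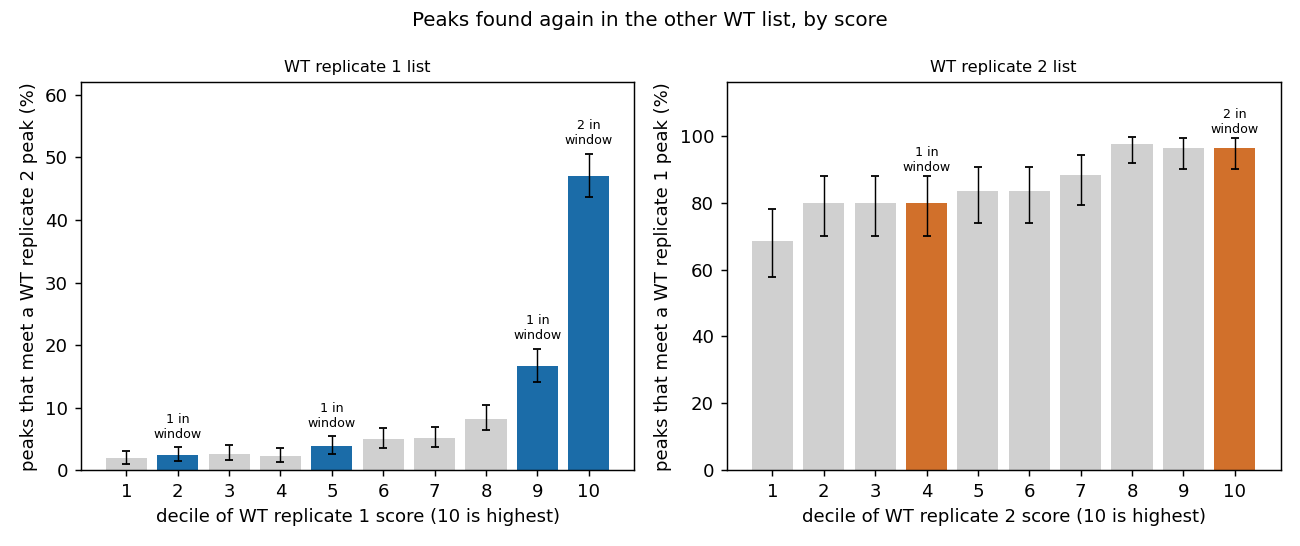
Share of peaks that meet a peak of the other WT list (y axis, percent, with exact 95% binomial intervals) by decile of the score (10 is highest), for WT replicate 1 (left) and WT replicate 2 (right); coloured bars hold members of the Satb1 window. In replicate 1 the 2 members in decile 10 and the 1 in decile 9 were the shared sites, and the members in deciles 2 and 5 had no counterpart.

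The midpoints of the paired peaks lay within 44.5 bp of each other, and their edges differed by up to 145 bp. The midpoint of the replicate 2 peak was above that of the replicate 1 peak by 31 bp at site A, 7.5 bp at site B and 44.5 bp at site C. Over the 726 replicate 1 peaks of the whole series that met a replicate 2 peak and no KO peak, the median distance between midpoints was 32 bp. At sites B and C the replicate 1 peak lay wholly inside the replicate 2 peak, an arrangement seen at 292 of the 726 sites (40.2%). At site A the replicate 2 peak lay wholly inside the replicate 1 peak, as at 84 of the 726 sites (11.6%). The overlap was 359 bp at site A, 352 bp at site B and 386 bp at site C.

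**Figure D4:**
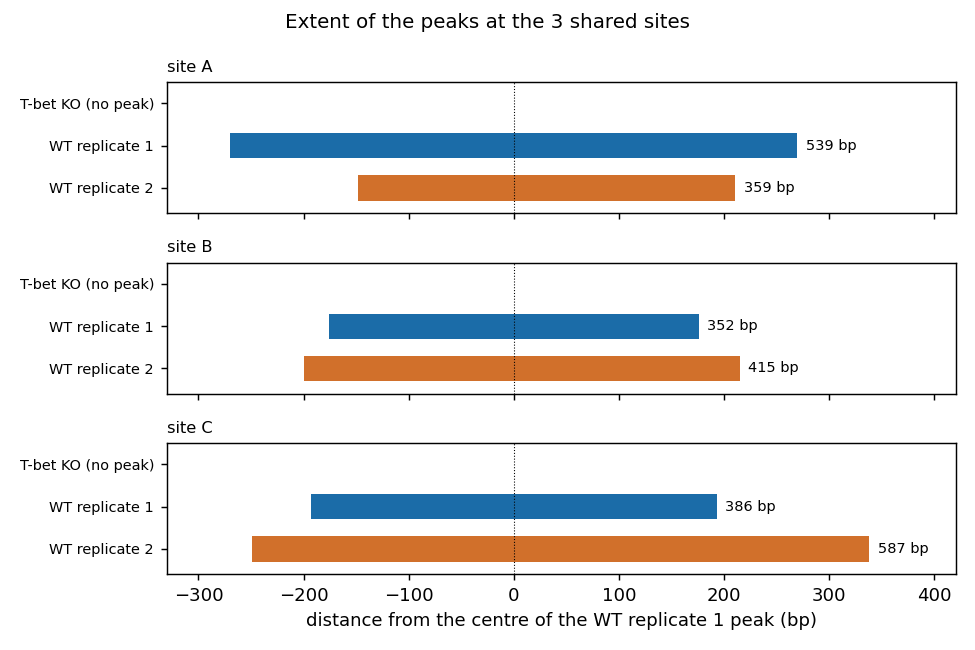
Extent of the peaks at sites A, B and C in bp from the centre of the WT replicate 1 peak, with T-bet KO on the top line of each panel (no peak), then WT replicate 1 and WT replicate 2. The replicate 2 peak is the narrower one at site A (359 bp) and the wider one at sites B (415 bp) and C (587 bp).

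Within the 726 sites shared by the WT libraries and without a KO peak, 3 were in the window and 38 on chromosome 17. Each replicate 1 peak counts as a site, also where several meet the same replicate 2 peak. The same replicate 2 peak can therefore enter the ranks by replicate 2 score more than once. By replicate 2 score, site C ranked 3 of 726, site B 74 and site A 459. By replicate 1 score, site C ranked 144, site A 349 and site B 391. On chromosome 17, site C was first of the 38 by replicate 2 score and 10th by replicate 1 score. Only 2 other sites in the series scored at least as high as site C in both libraries, against 62 for site B and 268 for site A. The medians of the 726 sites were 260 for the replicate 1 score and 112 for the replicate 2 score, so site B was above the median in replicate 2 and below it in replicate 1, and site A the other way round.

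**Figure D5:**
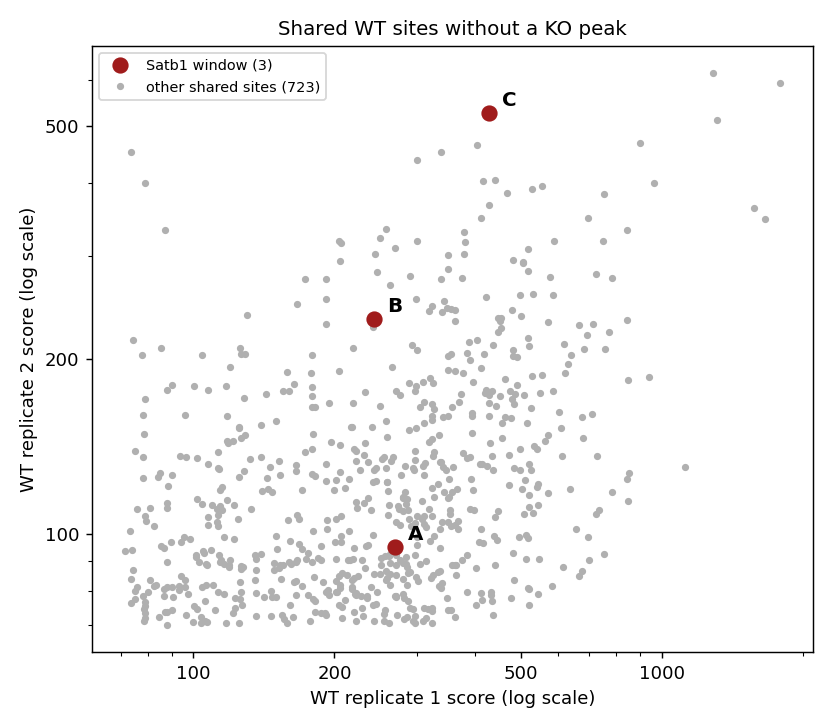
Scores of the 726 shared WT sites without a KO peak, WT replicate 1 on the x axis and WT replicate 2 on the y axis, both log scales with no common unit. The 3 Satb1 window sites are in red; site C is near the upper edge of the cloud, and site A lies below the replicate 2 median of 112.

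Peak density in the window was set beside chromosome 17. The KO list had 0 peaks per Mb in the window and 0.0420 over the chromosome. Replicate 1 had 7.14 peaks per Mb in the window and 4.18 over the chromosome, and replicate 2 had 4.29 and 0.430. Replicate 1 peaks covered 1599 bp of the window, or 0.228%, against 0.0950% of the chromosome, and replicate 2 peaks covered 1361 bp, or 0.194%, against 0.0177%. Since the window was chosen for its peaks, a higher density in it is no finding.

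The surroundings of the window held few peaks. The equal stretch of 700 kb on the lower side had no KO peak, 1 replicate 1 peak and no replicate 2 peak, and the one on the upper side had none in any list. The median gap between neighbouring replicate 2 peaks on chromosome 17 was 845 kb, and the KO list had 4 peaks on that chromosome. A stretch of 700 kb without a peak is therefore common in both of those lists. In replicate 1, the gap from site C to the next peak above was 1.42 Mb. Gaps at least this long made up 15 of the 397 on chromosome 17 and 5.56% of that whole list. The gap below the lowest replicate 1 member was 464 kb, and 46 of the 397 and 15.3% were at least as long. Just outside the edges, replicate 1 had a peak with a score of 95.5 at chr17:51464088-51464252, which is 286 kb below the lower edge, and one with a score of 100.2 at chr17:53726418-53726617, which is 1276 kb above the upper edge. Just inside, the outermost replicate 1 members were the peak with a score of 102, 179 kb above the lower edge, and site C, 148 kb below the upper edge.

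In replicate 2 the 3 sites stood alone over a much longer stretch. The next replicate 2 peak below site A was chr17:47644899-47645237 with a score of 74.35, a gap of 4.53 Mb, and the next above site C was chr17:56339411-56339525 with a score of 151, a gap of 4.04 Mb. Gaps at least this long made up 5 and 8 of the 40 gaps between neighbouring replicate 2 peaks on chromosome 17. Over the whole replicate 2 list they made up 21.5% and 24.1% of gaps. Replicate 1 had 25 peaks in the same 8.69 Mb, of which 20 lay outside the window. The stretch is bounded by the replicate 2 peaks next to the window, so those 20 could not meet a replicate 2 peak. Among the 20, 0 scored as high as site C in replicate 1 and 2 scored as high as site B.

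The KO list held 4 peaks on chromosome 17. The one nearest to the members, chr17:56339421-56339523 with a KO score of 268, was 4.04 Mb from site C, and peaks of both WT lists overlapped it. The upper neighbour in the replicate 2 list, named above, was thus also a KO peak, while sites A, B and C had no KO counterpart. The KO and replicate 2 lists carry a common leading number in their deposited names and replicate 1 a different one, whose meaning is not stated. Within the pair that shares it, the window held 0 of the 78 KO peaks and 3 of the 851 replicate 2 peaks. A short list of 78 peaks from 1 KO library does not show that these sites lacked signal in KO cells, because the depth of the libraries is unknown.

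Spacing within the window was uneven. From the lowest member upward, the gaps between replicate 1 peaks were 64.7, 182, 28.1 and 97.6 kb. Joined at gaps of up to 50 kb, they formed 4 groups, of which only that of sites A and B had more than 1 peak. Over the whole replicate 1 list the median gap was 60.2 kb, and 46.9% of gaps were within 50 kb. Over the 726 shared sites, taken by their replicate 1 peaks, the median gap was 726 kb and 26.5% of gaps were within 50 kb. Neighbours that met the same replicate 2 peak counted as separate sites, so some of the short gaps lay within a single replicate 2 peak.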

How the data were processed

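Peak lists of 3 T-bet ChIP-seq libraries were used. Per the submitters' processing notes, the tools were CASAVA, Bowtie2 and MACS 1.4 and the build mm9; settings, filters, the control of each call and read depth are not stated. Per the labels' protocols, chromatin was crosslinked for 20 minutes and fragments of 150 to 350 bp were read from one end over 35 or 50 bp; which library had which length is not stated. Each list holds 5 columns (chromosome, start, end, name, score). The score deposited by the authors for each peak is the peak caller's value; ranks count peaks with a higher score. Starts were raised by 1, so positions count from 1.

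Members were found by overlap with the window. The window, the members and the alternatives were chosen with earlier results of these data known. Named peaks are all replicate 2 and KO peaks in the window, the replicate 1 peaks that meet them and the 5 highest replicate 1 peaks, which together are all members; the neighbours outside the window and of Satb1 were also named. Where a replicate 1 peak met several replicate 2 peaks, the highest replicate 2 score was taken. Overlap counting was tested on simulated data. Chromosome lengths came from GenomeInfoDb 1.38.1. Start regions were taken from RefSeq, cut to the 250 bases before each start; the search in them was added after the peaks had been seen. The scripts ran under Python 3.11.15 with scipy 1.17.1 for intervals, numpy 2.4.6, and matplotlib 3.10.9 for figures. No test across samples was possible with 1 KO library.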

Additional observations from a re-analysis of the deposited data

How the results depend on the processing

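Counts of peaks, of shared peaks and of shared sites in the window stayed within 1.5 times their value when peaks scored at least 100, when peaks within 500 bp were merged, when the window was trimmed or extended by 100 kb at each end, and when sharing required a reciprocal overlap of 50%, midpoints within 250 bp or peaks within 1 kb. The count of KO peaks stayed at 0. Scores of at least 100, a limit set alike in every list although a common scale is not stated, removed the replicate 2 peak of site A and 1 replicate 1 peak, which left 2 shared sites and raised the median score of the members to 256 in replicate 1 and 380 in replicate 2. Leaving out either WT replicate gave 3 to 5 sites without a KO peak: 3 without replicate 1 and 5 without replicate 2. Joining peaks at gaps of up to 100 kb gave 2 groups in replicate 1, in place of 4, and 1 group in replicate 2, in place of 2. At gaps of up to 25 kb there were 5 groups in replicate 1 and 3 in replicate 2. Every member then stood alone. Sites A and B lay 28.1 kb apart by their replicate 1 peaks. They were joined at 50 kb and, together with site C, at 100 kb, but not at 25 kb. A T-box motif search in the peaks, which had been planned, was not run because no mm9 genome was used here. No paired analysis was possible because the KO group has 1 library and the result comes from no test. Depth is unknown, and a site missing from a list is not shown to be unbound.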
